A study of Mus musculus with 6 samples.

Results

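Axon guidance genes of 4 systems, the semaphorins with their plexin receptors, the netrins with Dcc and the Unc5 receptors, the Slits and the Robos, were followed in mouse colon that lacked epithelial Indian hedgehog. They were taken from the array's annotation by a pattern of gene symbols, chosen with earlier results of these data known. Of the 19938 genes with a row of their own on the array, 46 were members. The members were 7 secreted class 3 semaphorins, 13 semaphorins of classes 4 to 7, 9 plexins, 4 netrins, 1 netrin-G, 5 netrin receptors, 3 Slits, 3 Robos, and Unc5cl, a death-domain protein that the symbol pattern also caught although it is not known as a netrin receptor. Ntng2 shared its single row with another gene and was not a member.

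The mutants were VilCre;Ihhflox/flox mice, in which Cre recombinase driven by the villin promoter removes Ihh from intestinal epithelium, and the controls were littermates that the sample labels call wild type. There were 3 mutants and 3 controls, 1 of each in each of 3 litters, and each mouse gave 1 Affymetrix Mouse Gene 1.0 ST array of whole colon RNA. The design text places the harvest at postnatal day 12, whereas the sample protocol gives a span from day 9 to day 12, and strain, sex and the controls' own Ihh and Cre alleles are not stated. The villin promoter leaves Ihh intact in cells outside the epithelium, and the array read RNA from the entire colon wall.

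Guidance ligands were named for steering growing axons, but the same molecules are made by epithelium, muscle, fibroblasts and vessels of the gut wall. Secreted semaphorins bind neuropilins and signal through plexins, and mostly repel the cells that receive them. Sema3a is known for holding back extrinsic axons from the developing hindgut, and netrins for attracting enteric neural crest cells through Dcc. Slits bind Robo receptors, which repel axons and also act in vessels and intestinal epithelium. Ihh made by the epithelium is received by the mesenchyme beneath it, where it raises Ptch1, Gli1 and Hhip.

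The hedgehog response was lower in all 3 mutants. Ihh itself, on the log2 scale of RMA, read 8.50, 8.54 and 8.68 in the controls and 8.37, 8.22 and 8.22 in the mutants (both in the order of litters 1 to 3, as in all lists of values that follow), and did not pass (adjusted p = 0.139). Where its probes lie relative to the deleted part was not examined, and a probe outside it would not check the labels. Ptch1, Gli1 and Hhip changed by -1.44, -0.78 and -2.16 on the log2 scale, with adjusted p = 0.000493, 0.00355 and 0.000493 (limma). Car1, a carbonic anhydrase of colon epithelium, read 12.63, 12.46 and 12.06 in the controls and 13.09, 12.80 and 13.17 in the mutants. All 3 mutants were above all controls, but the change of 0.63 did not pass (limma adjusted p = 0.057). Fabp6, an ileal bile acid carrier, read 5.08, 5.39 and 5.41 in the controls and 5.44, 7.79 and 5.86 in the mutants. Fabp6 was also higher in mutants without overlap, most in mutant 2, and its change of 1.07 did not pass (limma adjusted p = 0.171). Xist, expressed from the inactive X, was at 11.96 in control 1, 12.03 in mutant 2 and 11.92 in mutant 3 and between 5.83 and 6.41 in the other 3 mice, and the Y-linked Uty was high where Xist was low. Each litter thus set a mouse with high Xist against a mouse with low Xist, in litter 1 the opposite way round from litters 2 and 3.

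Of the 46 members, 6 fell, 1 rose and 39 did not pass (limma with the litter as a block, Benjamini-Hochberg adjusted p under 0.05 over all 19938 genes). The falls were 13.0% of the members, against 2.11% of all genes called lower, and the single rise was 2.17%, against 1.66% of all genes called higher, which is near that background. Sema3a, Robo1, Plxnd1, Sema3f, Plxna4 and Plxnc1 fell, and Slit2 rose. The mutants lay wholly below the controls for 16 members (34.8%, against 9.78% of all genes) and wholly above them for 5 (10.9%, against 10%). The median change of the members was -0.08 and that of all genes was 0.01, with 31 of 46 member changes (67.4%) and 47.5% of those of all genes below 0. At an unadjusted p under 0.05 in limma, 14 members were lower (30.4%, against 8.03% of all genes) and 6 higher (13%, against 7.05%). In whole colon, fewer cells of a type and less RNA per cell cannot be told apart.

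**Figure D1:**
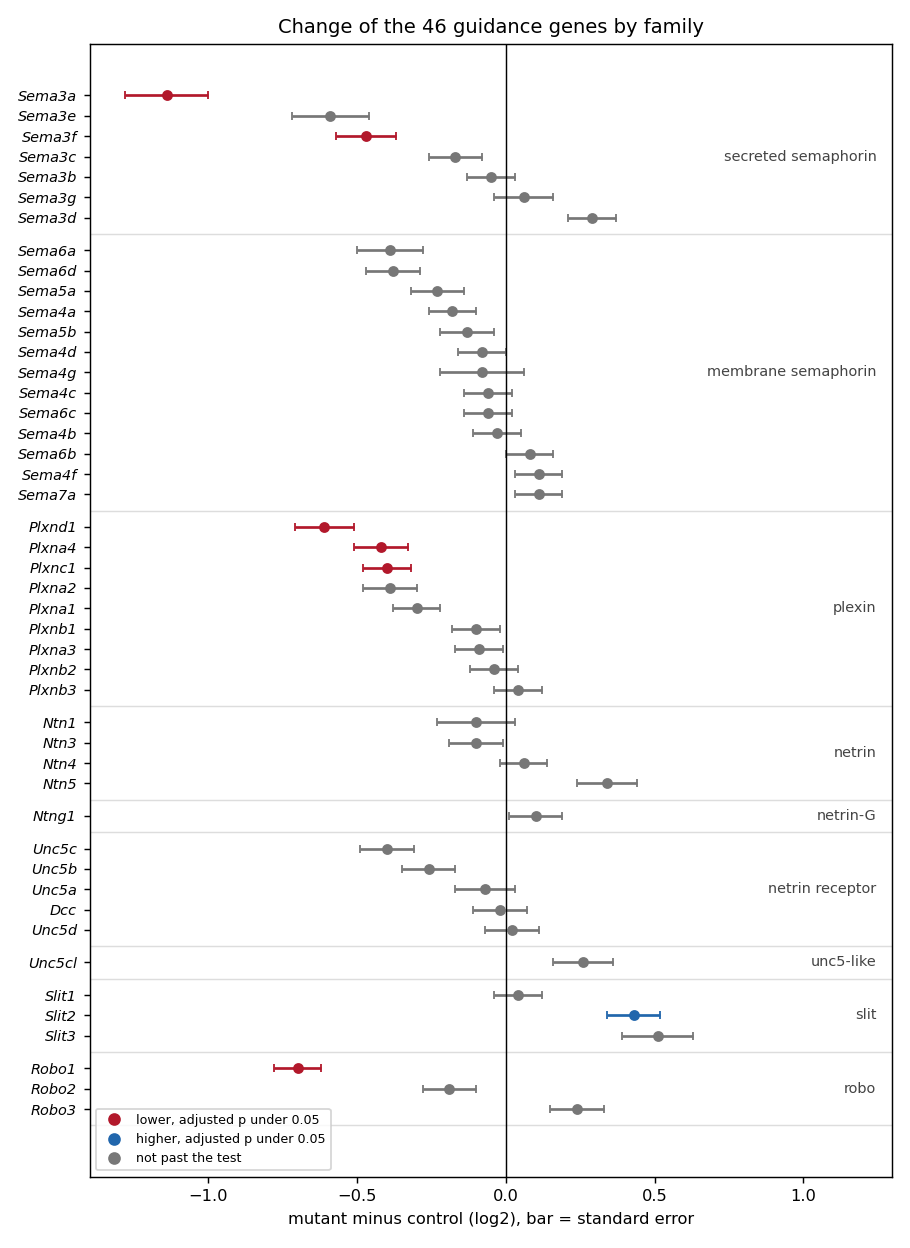
Change of each of the 46 members, mutant minus control on the log2 scale with its standard error, grouped by family, with 3 mice per group. Red marks the 6 members that fell, blue the 1 that rose and grey the 39 that did not pass; the secreted semaphorin Sema3a lies farthest to the left and Slit2 and Slit3 farthest to the right.

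The letters before the start sites are shown for the member with the largest fall (Sema3a), the member with the most even fall over the litters (Robo1), the plexin with the largest fall (Plxnd1) and the member that rose (Slit2). Each is the 250 bases before the RefSeq start site on GRCm38.p6, 5′ to 3′ on the gene's strand, at chr5:13396534-13396783 (plus) for Sema3a, chr16:72662899-72663148 (plus) for Robo1, chr6:115995006-115995255 (minus) for Plxnd1 and chr5:47982905-47983154 (plus) for Slit2. Capitals mark GC boxes, GGGCGG on either strand.
Sema3a: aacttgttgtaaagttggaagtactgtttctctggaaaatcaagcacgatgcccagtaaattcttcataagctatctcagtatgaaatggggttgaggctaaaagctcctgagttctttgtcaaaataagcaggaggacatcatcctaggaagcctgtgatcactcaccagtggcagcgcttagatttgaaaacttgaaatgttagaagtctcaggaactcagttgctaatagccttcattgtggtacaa
Robo1: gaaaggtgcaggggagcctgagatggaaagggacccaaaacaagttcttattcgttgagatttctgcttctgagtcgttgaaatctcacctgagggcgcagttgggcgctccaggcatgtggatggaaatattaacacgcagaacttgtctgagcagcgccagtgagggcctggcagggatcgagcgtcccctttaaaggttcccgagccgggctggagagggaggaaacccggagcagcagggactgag
Plxnd1: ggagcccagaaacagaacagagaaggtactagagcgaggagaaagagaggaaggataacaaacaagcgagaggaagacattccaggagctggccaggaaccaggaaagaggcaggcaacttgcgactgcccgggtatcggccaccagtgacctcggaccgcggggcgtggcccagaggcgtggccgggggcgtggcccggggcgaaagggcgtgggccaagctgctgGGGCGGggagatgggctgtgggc
Slit2: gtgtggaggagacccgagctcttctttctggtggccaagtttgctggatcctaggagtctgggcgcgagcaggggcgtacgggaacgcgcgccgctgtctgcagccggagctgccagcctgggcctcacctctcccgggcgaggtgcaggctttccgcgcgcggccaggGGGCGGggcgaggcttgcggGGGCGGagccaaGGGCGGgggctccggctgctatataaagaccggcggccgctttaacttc

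These stretches differed in composition. The Sema3a stretch was 40.8% G and C with 2 CG pairs and no GC box, a lower G and C share than in most of the 32851 RefSeq windows, of which 13.3% were lower still. The Robo1 stretch was 56% G and C with 11 CG pairs and no GC box. The Plxnd1 stretch held 16 CG pairs and 1 GC box, and the Slit2 stretch 25 CG pairs, 3 GC boxes and the only TATAAA found before a member. A window was on hand for 37 members and 5 of the 7 that passed (not Sema3f and Plxna4), and the fifth, Plxnc1, held 4 GC boxes. GC boxes lay before 28 of the 37 members, in 34 of their 50 windows, and in 32.7% of all windows. The member windows were richer in G and C, with a median of 63.8% and 13 CG pairs, against 52.4% and 6 over all windows. Motif shares here and below were not adjusted for this composition. The 9-letter Gli site TGGGTGGTC, on either strand, was in 0 of the 50 member windows and in 0.225% of all windows. Its shorter core TGGGTGG, which is part of that site, was in 7 member windows (before Plxna2, Robo2, Sema3c, Sema3g, Sema4a, Sema5a and Sema6c) and in 8.11% of all windows. The forkhead site TGTTTAC was in 0 member windows and in 3.17% of all windows. These matches describe the letters of 250 bases and say nothing about binding.

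The secreted class 3 semaphorins gave the largest single change. Sema3a, a repellent that signals through neuropilin 1 and A-type plexins, stood at 9.82, 9.83 and 10.03 in controls 1 to 3 and at 9.13, 8.39 and 8.73 in mutants 1 to 3. The groups did not overlap, and mutant 1 was the mutant nearest to the controls. Sema3a was 2.21-fold lower in mutants, a change of -1.14 ± 0.14 (standard error, n = 3 litters; limma adjusted p = 0.00602). By litter the difference was -0.69, -1.44 and -1.30, so litters 2 and 3, in which the mutant had the higher Xist, showed the larger falls. With Xist as a covariate the limma adjusted p was 0.00309, and with each litter left out it lay between 0.000211 and 0.00320. These fits estimate the spread differently, so a smaller adjusted p in them is not stronger evidence than that of the fit as reported.

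Sema3f, a repellent that signals through neuropilin 2, read 9.19, 8.99 and 9.09 in controls and 8.47, 8.59 and 8.79 in mutants, again without overlap. It fell by 0.47 ± 0.10 (limma adjusted p = 0.0477), most in litter 1 (-0.72, against -0.40 and -0.30). This call lay at the threshold and was lost without litter 1 (limma adjusted p = 0.0910) and after quantile normalization (0.0623), within a range of 0.0140 to 0.243 over 12 alternatives.

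Sema3e, which binds Plxnd1 directly and guides vessels, was close to the threshold and did not pass. Its controls read 8.0, 8.10 and 8.02 and its mutants 7.82, 7.30 and 7.24, with a change of -0.59 ± 0.13 and limma adjusted p = 0.0523. All 3 mutants were below all controls, but litter 1 contributed -0.18 and litters 2 and 3 contributed -0.80 and -0.78. The smaller difference was again that of litter 1, the only litter whose control had the higher Xist, so Xist and litter cannot be told apart. Among the members that passed, Sema3a also fell least in litter 1, whereas Plxnd1 and Sema3f fell most in it. Robo1 fell evenly over the litters. Sema6a, Sema6d, Plxna2, Unc5c and Slit3, which did not pass, also changed least in litter 1. Sema3e passed in 7 of 12 alternatives, among them without litter 1 (limma adjusted p = 0.00814) and with Xist as a covariate (0.0197). It did not pass without litter 2 (0.0761) or litter 3 (0.148), with 0.276 as the highest over the alternatives.

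The other 4 secreted semaphorins did not pass. Sema3d was higher in the mutant of every litter (0.39, 0.28 and 0.19) with overlapping groups and a change of 0.29 ± 0.08 (limma adjusted p = 0.128). Sema3c, a ligand that acts on neural crest and vessels, changed by -0.17 ± 0.09 and had near-equal values in litter 1 (10.29 in both mice). Sema3b and Sema3g changed by -0.05 and 0.06, with limma 95% intervals of -0.23 to 0.14 and -0.17 to 0.28.

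**Figure D2:**
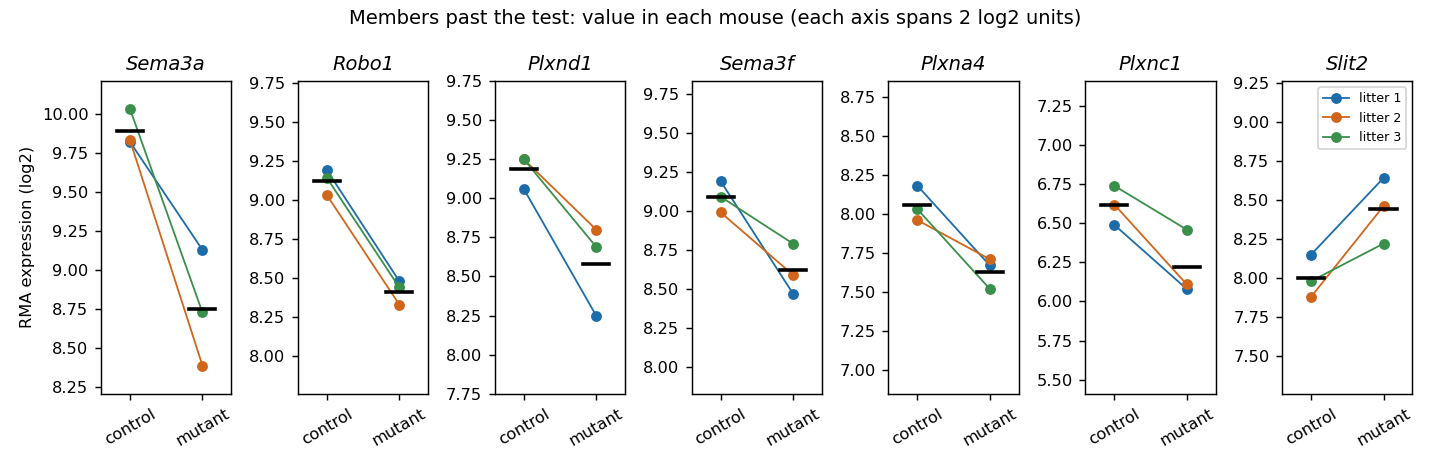
RMA expression on the log2 scale of the 7 members that passed the test, in control and mutant mice, with littermates joined by a line and group means as black bars (n = 3 per group). Each panel spans the same 2 log2 units; in every panel the 3 lines run the same way and the groups do not overlap, and the Robo1 lines are nearly parallel.

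None of the 13 membrane-bound semaphorins passed. In limma 3 were lower at an unadjusted p under 0.05 (23.1%, against 8.03% of all genes) and 0 were higher (against 7.05%). These were Sema6a, Sema6d and Sema5a. Sema6a, a ligand of Plxna2 and Plxna4, read 8.87, 9.10 and 9.05 in controls and 8.74, 8.70 and 8.40 in mutants (-0.39 ± 0.11, limma adjusted p = 0.108). Sema6d, a ligand of Plxna1, read 9.42, 9.56 and 9.45 in controls and 9.25, 9.14 and 8.91 in mutants (-0.38 ± 0.09, limma adjusted p = 0.0803). Both had groups that did not overlap, and both were smallest in litter 1 (-0.13 and -0.18) and passed without it (limma adjusted p = 0.0411 and 0.0377, with 0.5 and 0.392 as the highest over the alternatives). Sema5a, which carries thrombospondin repeats, was at -0.23 ± 0.09.

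The class 4 semaphorins, which act mainly through B-type plexins and on immune cells, lay close to 0. Sema4a was at -0.18 with mutants below all controls, and Sema4b, Sema4c, Sema4d and Sema4g were at -0.03, -0.06, -0.08 and -0.08. Sema4g went in opposite directions between litters (0.39, -0.39 and -0.22). Sema4f was at 0.11, and it is 1 of 4 members, with Dcc, Robo3 and Slit1, among the dimmest 30% of genes. The remaining membrane semaphorins were Sema5b (-0.13), Sema6b (0.08), Sema6c (-0.06) and Sema7a (0.11), the last a lipid-anchored ligand of Plxnc1 and of the integrin that holds Itga1.

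Of the 9 plexins, the receptors of semaphorins, 3 fell (33.3%, against 2.11% of all genes), 0 rose and 6 did not pass. Their median change was -0.30, and 8 of 9 changes were below 0 (88.9%, against 47.5% of all genes). At an unadjusted p under 0.05, 5 were lower (55.6%, against 8.03% of all genes) and 0 higher (against 7.05%) in limma. Plxnd1, the receptor of Sema3e that is known from endothelium, read 9.06, 9.25 and 9.25 in controls and 8.25, 8.80 and 8.69 in mutants. The groups did not overlap and mutant 1 was the lowest. Plxnd1 was 1.52-fold lower, at -0.61 ± 0.10 (limma adjusted p = 0.0160). It passed without each litter in turn (limma adjusted p between 0.00319 and 0.0335).

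Markers of blood endothelium are given beside Plxnd1. Of 10 such markers 6 fell (60%, against 2.11% of all genes) and 0 rose (against 1.66%). The mean level of the list was 8.49 to 8.72 in controls and 8.10 to 8.25 in mutants. The median marker differed by -0.37, -0.42 and -0.44 in litters 1 to 3, beside -0.81, -0.45 and -0.56 for Plxnd1. The part of endothelium in this result was not tested.

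All 4 A-type plexins, the signalling partners of neuropilins, lay lower in mutants without overlap (100%, against 9.78% of all genes). Of them 1 passed (25%, against 2.11% of all genes called lower). Plxna4, a receptor for Sema3a and Sema6a on neurons, read 8.18, 7.96 and 8.03 in controls and 7.67, 7.71 and 7.52 in mutants. It fell by 0.42 ± 0.09 (limma adjusted p = 0.0465). The call was lost without litter 1 (0.107), without litter 3 (0.214) and after quantile normalization (0.0527), with 0.0247 to 0.230 over the alternatives. Plxna2 was at -0.39 ± 0.09, with 8.53, 8.61 and 8.58 in its controls and 8.30, 8.05 and 8.21 in its mutants (limma adjusted p = 0.0655). Plxna2 passed in 5 of 12 alternatives, among them without litter 1 (0.0489), with 0.285 as the highest limma adjusted p. Plxna1 and Plxna3 were at -0.30 ± 0.08 and -0.09 ± 0.08 and did not pass.

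Markers of enteric neurons were set beside Plxna4 because neurons are where this receptor is best known. Of 11 measured neuron markers 0 fell (against 2.11% of all genes) and 0 rose (against 1.66%) in limma. Their median difference was -0.44, 0.15 and 0.01 in litters 1 to 3, whereas Plxna4 differed by -0.51, -0.25 and -0.51. The mean level of the list was 7.80 to 8.06 in controls and 7.63 to 8.0 in mutants, which overlap. Their part in the Plxna4 result was not tested.

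Plxnc1, a receptor of Sema7a found on leukocytes among other cells, read 6.49, 6.62 and 6.74 in controls and 6.08, 6.11 and 6.46 in mutants, and the highest mutant lay just under the lowest control. It fell by 0.40 ± 0.08 (limma adjusted p = 0.0441). Its row lay just above the dimmest 30% of genes, at percentile 30.5 of mean level. The call was lost without the litter block (0.116) and without each of litters 1, 2 and 3 (0.0835, 0.168 and 0.0834), with 0.0304 to 0.216 over the alternatives. Macrophage markers had a median difference of -0.30, -0.05 and -0.18 in litters 1 to 3, beside -0.42, -0.50 and -0.29 for Plxnc1. Of 6 such markers 0 fell (against 2.11% of all genes) and 1 rose (16.7%, against 1.66%). Their mean level was 8.23 to 8.32 in controls and 8.07 to 8.26 in mutants. Neutrophil markers went the other way, with 4 of 7 higher (57.1%, against 1.66% of all genes) and 0 lower (against 2.11%). Their mean level was 5.97 to 6.21 in controls and 6.51 to 7.15 in mutants. The part of either cell type in the Plxnc1 result was not tested.

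The B-type plexins, receptors of class 4 semaphorins, were near 0. Plxnb1, Plxnb2 and Plxnb3 changed by -0.10, -0.04 and 0.04, and the limma 95% interval of Plxnb2 ran from -0.23 to 0.16.

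Of the 3 Slits 1 rose, Slit2 (33.3%, against 1.66% of all genes called higher), and 2 did not pass. Of the 3 Robos 1 fell, Robo1 (33.3%, against 2.11% of all genes called lower), and 2 did not pass. Slit2, a secreted repellent that binds Robo1 and Robo2, read 8.15, 7.88 and 7.98 in controls and 8.64, 8.46 and 8.22 in mutants. All 3 mutants were above all controls, with mutant 3 the nearest to them. Slit2 rose by 0.43 ± 0.09, which is 1.35-fold (limma adjusted p = 0.0495). The call was lost in 8 of 12 alternatives, among them no litter block (0.0983), median centring (0.0560), and without litter 1 (0.114) or litter 2 (0.165), within a range of 0.0355 to 0.239.

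Slit3, a secreted relative with the same receptors, had a larger change and did not pass. It read 8.28, 8.08 and 8.0 in controls and 8.44, 8.83 and 8.63 in mutants (0.51 ± 0.12, limma adjusted p = 0.0635). All mutants exceeded all controls, and litter 1 (0.16) contributed less than litters 2 and 3 (0.75 and 0.63). It passed in 6 of 12 alternatives, among them no litter block (0.0496), without litter 1 (0.0136) and with Xist as a covariate (0.0317), with 0.293 as the highest limma adjusted p. Slit1, best known from brain, changed by 0.04.

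Robo1, a receptor of Slits, showed the most even fall among the members that passed. It read 9.19, 9.03 and 9.14 in controls and 8.48, 8.33 and 8.44 in mutants. The littermate differences were -0.71, -0.70 and -0.70, and the spread within each group was 0.08 (SD, n = 3 each). Robo1 was 1.63-fold lower, at -0.70 ± 0.08 (limma adjusted p = 0.00440). The value without each litter in turn lay between 0.00193 and 0.0116.

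The other Robo receptors did not follow Robo1 to that extent. Robo2, which shares its ligands, was at -0.19 ± 0.09, with 9.40, 9.52 and 9.53 in controls and 9.37, 9.20 and 9.30 in mutants and a limma adjusted p of 0.381. Robo3, a divergent receptor of commissural axons, was at 0.24 ± 0.09 (limma adjusted p = 0.259) on a dim row. Whether Robo1 and Robo2 differ in their change was not tested.

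Markers of smooth muscle and fibroblasts are given beside the members that fell. Of 9 smooth muscle markers 5 fell (55.6%, against 2.11% of all genes) and 0 rose (against 1.66%). Their median difference was -0.74, -0.52 and -0.29 in litters 1 to 3. Beside it stand -0.72, -0.40 and -0.30 for Sema3f, -0.71, -0.70 and -0.70 for Robo1 and -0.69, -1.44 and -1.30 for Sema3a. The mean level of that list was 11.61 to 11.68 in controls and 10.93 to 11.35 in mutants. Of 8 fibroblast markers 1 fell (12.5%, against 2.11% of all genes) and 0 rose (against 1.66%). Their median difference was -0.35, -0.09 and -0.09 in litters 1 to 3. Their mean level was 11.74 to 11.81 in controls and 11.38 to 11.67 in mutants. The part of these cells in the falls of Sema3a, Sema3f and Robo1 was not tested. Among 7 genes listed as mesothelial markers 2 rose (28.6%, against 1.66% of all genes), 5 did not pass and 0 fell (against 2.11%). The list holds Krt18 and Krt19, which epithelium also makes, so it does not mark mesothelium alone. The mean level of the list was 7.92 to 8.47 in controls and 8.26 to 8.67 in mutants, which overlap. Their median difference was 0.17, 0.48 and 0.21 in litters 1 to 3, beside 0.49, 0.58 and 0.23 for Slit2 and 0.16, 0.75 and 0.63 for Slit3, and their part there was not tested.

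**Figure D3:**
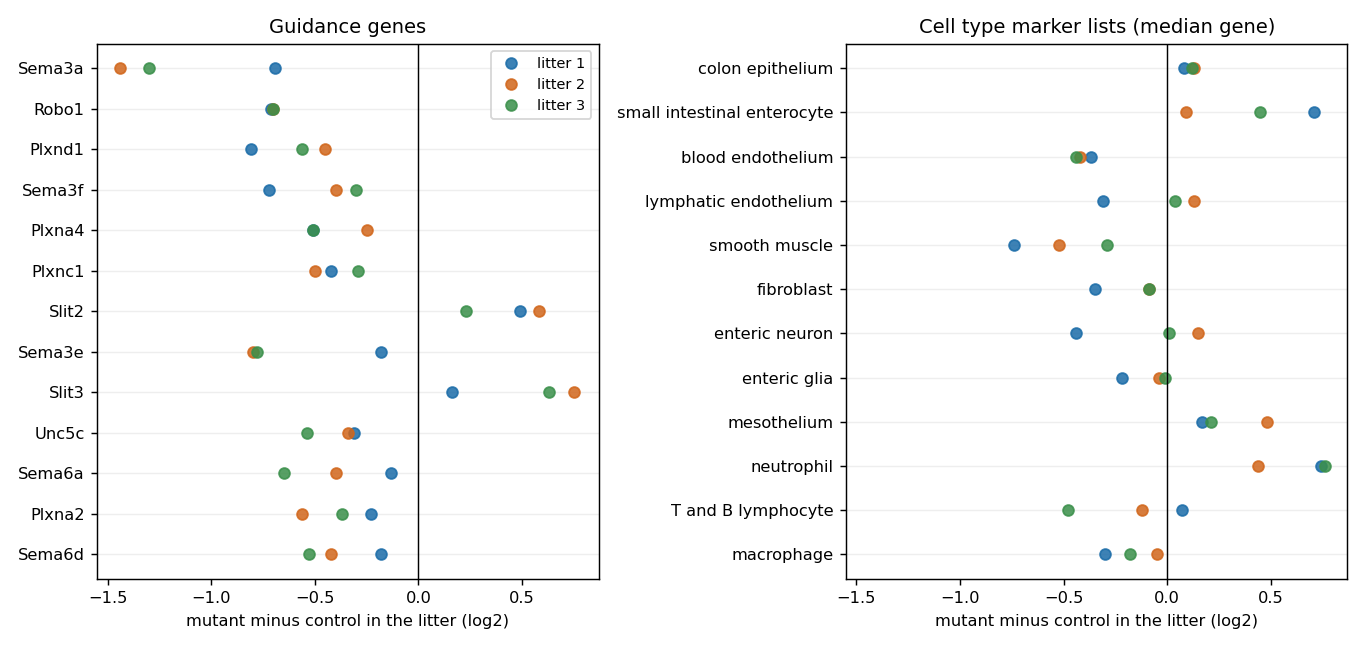
Mutant minus control in each litter on the log2 scale, for the 7 members that passed and the 6 further members with the largest changes (left), and as the median gene of 12 cell type marker lists (right). The 3 Robo1 points coincide near -0.70, Sema3e and Slit3 are nearest to 0 in litter 1, and the blood endothelial and smooth muscle medians are below 0 in all 3 litters.

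None of the 4 netrins passed, and at an unadjusted p under 0.05 in limma 1 was higher (7.05% of all genes were) and 0 lower (8.03% of all genes). Ntn1, the classical ligand of Dcc and the Unc5 receptors, read 8.31, 8.28 and 8.20 in controls and 7.80, 8.40 and 8.30 in mutants. Mutant 1 alone lay below the controls, so the change of -0.10 ± 0.13 hides -0.51 in litter 1 beside 0.12 and 0.11 in the others (limma adjusted p = 0.837). Ntn5, a little-studied netrin, was higher in every litter without overlap of the groups (0.34 ± 0.10, limma adjusted p = 0.128), and control 3, at 6.20, was the lowest of its controls. Ntn3 and Ntn4, the latter a basement membrane component, changed by -0.10 and 0.06. Ntng1, a lipid-anchored relative that does not bind Dcc, changed by 0.10, while a second, dimmer row of it changed by -0.11, so its direction depends on the row.

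None of the 5 netrin receptors passed either, with 2 lower (8.03% of all genes were) and 0 higher (7.05% of all genes) at an unadjusted p under 0.05 in limma. Unc5c, a repulsive netrin receptor, came nearest. It read 7.62, 7.48 and 7.37 in controls and 7.31, 7.14 and 6.83 in mutants, without overlap, and its change was -0.40 ± 0.09 (limma adjusted p = 0.0506). The limma adjusted p ranged from 0.0355 to 0.303 over the alternatives, passing in 3 of 12. Unc5b, known from vessels, was at -0.26 ± 0.09 with overlapping groups (limma adjusted p = 0.195).

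Dcc, the attractive netrin receptor, read 5.89, 5.81 and 5.97 in controls and 5.87, 5.97 and 5.77 in mutants on a dim row, a change of -0.02 with a limma 95% interval of -0.24 to 0.20. Unc5a and Unc5d changed by -0.07 and 0.02. Unc5cl, the related death-domain protein, was higher in every litter with overlapping groups (0.26 ± 0.10, limma adjusted p = 0.244).

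Co-receptors, further ligands and cytoplasmic partners of these systems were examined as a list of 65 genes, of which 61 were measured. Of these 4 fell, 0 rose and 57 did not pass, and at an unadjusted p under 0.05 12 were lower (19.7%, against 8.03% of all genes) and 0 higher (against 7.05%) in limma. The falls were 6.56% of the list, against 2.11% of all genes, and the list median was -0.04. Kdr, the VEGF receptor that can pair with neuropilins, read 8.82, 9.08 and 9.0 in controls and 8.21, 8.48 and 8.39 in mutants, a fall of 0.61 ± 0.08 (limma adjusted p = 0.00695). It is also among the 10 endothelial markers. Robo4, the endothelial Robo, read 7.67, 7.92 and 7.92 in controls and 7.22, 7.49 and 7.62 in mutants. It fell by 0.40 ± 0.08 (limma adjusted p = 0.0402) and lost its call without the litter block (0.123) and without each of litters 1, 2 and 3 (0.0796, 0.123 and 0.0976), within 0.0275 to 0.202 over the alternatives.

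The other falls on that list were Itga1 and Fyn. Itga1, an integrin chain that receives collagen and Sema7a, read 10.73, 10.77 and 10.79 in controls and 10.19, 10.09 and 10.30 in mutants, and fell by 0.57 ± 0.08 (limma adjusted p = 0.0123). Fyn, a Src-family kinase used by plexin and Dcc signalling, read 8.29, 8.44 and 8.43 in controls and 7.93, 8.01 and 8.08 in mutants, and fell by 0.38 ± 0.08 (limma adjusted p = 0.0424), with 0.0630, 0.155 and 0.160 without litters 1, 2 and 3, within 0.0288 to 0.202 over the alternatives.

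The neuropilins and neogenin did not pass. Nrp1, which binds Sema3a, read 9.19, 9.17 and 9.12 in controls and 9.11, 9.27 and 9.0 in mutants. Its groups overlapped, and the limma 95% interval of its change (-0.03) ran from -0.23 to 0.17. Nrp2, which binds Sema3f, read 10.35, 10.19 and 10.13 in controls and 9.96, 9.90 and 10.01 in mutants, wholly lower (-0.27 ± 0.09, limma adjusted p = 0.177). Neo1, the Dcc relative neogenin, read 9.99, 10.09 and 10.08 in controls and 9.73, 9.88 and 9.62 in mutants, also wholly lower (-0.31 ± 0.09, limma adjusted p = 0.117).

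Calls near the threshold moved with the settings, and those of Sema3a, Robo1 and Plxnd1 held in 11 of 12 alternatives. The exception was a fit of all 35557 rows, named or not, in which no member passed (limma adjusted p = 0.123, 0.0945 and 0.161 for these 3) and Ptch1 and Hhip were both at 0.0628. In that fit 2 of the 19938 genes passed. Plxna4, Plxnc1, Sema3f and Slit2 held in 8, 6, 9 and 4 of 12. In each alternative these 7 members kept their direction.

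**Figure D4:**
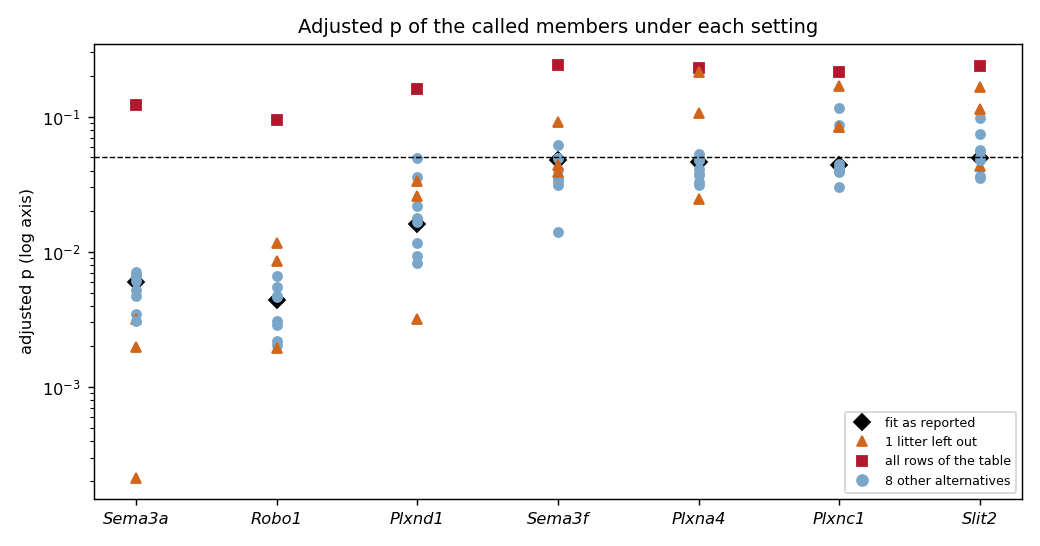
Benjamini-Hochberg adjusted p (log axis) of the 7 members that passed, in the fit as reported (black), with 1 litter left out (orange), with all rows of the table (red) and in the other 8 alternatives (blue), the dashed line marking 0.05. For Sema3a, Robo1 and Plxnd1 every point but the red square is under the line, and for Sema3f, Plxna4, Plxnc1 and Slit2 the points lie on both sides of it.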

How the data were processed

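Expression had been measured with 1 array per mouse in 3 mutants and 3 controls. The deposited values are on the log2 scale and were made by the authors with RMA, per the submitters' processing notes; the version of RMA was not given in the sources used here, nor was a genome build. Array medians were 7.10 to 7.14, and correlations between arrays across rows were 0.986 to 0.994. Arrays hold no counts, so the number of mice limits precision.

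Rows were named by the 2016 platform annotation, and for each gene the row with the highest mean was kept (46 members, 4 with a second row; both rows of Sema6b held the same values). limma 3.58.1 in R 4.3.3 compared mutant with control over 19938 genes with the litter as a fixed block (2 residual and 5.85 prior degrees of freedom), two-sided, with Benjamini-Hochberg adjustment. The design text says that equal numbers are littermates, which is where the pairing comes from; across genes, each sample's deviation from its group mean correlated with that of its littermate by 0.0128, 0.00516 and 0.0613 in the 3 pairs. No filter on low values was applied, so every member was tested. The fit was tested on simulated data. Errors beside a change are standard errors, and 95% intervals use the same fit.

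Given with all 6 values were members under 0.05 and the 6 further members with the largest change; others were given by their change, and some with values, chosen after these were seen. The companion list was named by Nrp1, Nrp2, Neo1 and genes that passed. Members and lists were chosen with earlier results of these data known. Windows before start sites were taken from RefSeq. Alternatives were no litter block, litter as a random effect, a robust and trended prior in eBayes, quantile normalization, median centring, no genes of the dimmest 30%, row means, all rows, each litter left out, and Xist as a covariate. Of 12 marker lists, those not described with the members were colon epithelium (2 of 9 lower, 0 higher), small intestinal enterocyte (1 of 9 lower, 2 higher), lymphatic endothelium (0 of 4), enteric glia (0 of 5) and lymphocyte (0 of 6) genes. Over all genes 2.11% were called lower and 1.66% higher.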

Additional observations from a re-analysis of the deposited data

How the results depend on the processing

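With the replicate block left out, that is with littermates not paired, limma called 6 members lower and 1 higher. These are the same counts as with the block, but 5 of the 7 members called with it were among them. Plxnc1 and Slit2 were lost, and Plxna2 and Slit3 were gained. Over all genes 638 passed without the block. The count of members called lower was 0 with all rows of the table, where 2 of the 19938 genes passed. The prior had 3.01 degrees of freedom there, and the cause was not tested. The count called higher was 0 with quantile normalization, median centring, row means and all rows, and it was 2 with trend and robust, without the dimmest 30% of genes and with Xist as a covariate. With a litter left out, members called higher numbered 0 to 1, members called lower 4 to 7 and companion genes called lower 2 to 3. Over all genes 781, 798 and 546 passed without litters 1, 2 and 3. The prior had 5.12, 18.3 and 11.6 degrees of freedom without litters 1, 2 and 3, and 5.85 in the fit as reported. With Xist as a covariate 1230 of all genes passed, against 751 in the fit as reported. Companion genes called lower were 0 with all rows. The median change of the members was -0.11 to -0.06 with a litter left out. The 7 called members kept their direction in all 12 alternatives, and quantile normalization and median centring turned the sign of 0 of 46 members. Row means turned Ntng1. With a litter left out, up to 4 members near 0 changed sign. The deposited values hold no background level, so changes on the dim rows of Dcc, Robo3, Sema4f and Slit1 have unknown precision. The same holds for Plxnc1, a called member at percentile 30.5 of mean level.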
